A study of Mus musculus with 3 samples.

Results

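MBT2 is a mouse bladder cancer cell line that grows as a tumor in syngeneic C3H mice. The library described here was made from MBT2 cells that carried a scramble hairpin, the control for hairpins against Asns, which encodes asparagine synthetase. The study sequenced 3 RNA libraries, 1 for scramble and 1 for each of 2 Asns hairpins, and no hairpin library was compared here. Per the study's methods, hairpins were delivered in the lentiviral pLKO.1 vector and infected cells were selected with puromycin, so the scramble cells also went through infection and selection. The sample labels give RPMI-1640 as the medium and TRIzol for RNA isolation, whereas the methods give DMEM and a FastPure kit, with serum and antibiotics in both. Genes were kept when they had at least 10 estimated counts in the scramble library. There were 13036 such genes among the 57010 of the table (22.9%), and 11311 of them were among the 21880 protein-coding genes (51.7%). These shares are the background against which each group of genes is read.

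The urothelium that lines the bladder is built of luminal cells, which make uroplakins and low-molecular-weight keratins, above basal cells, which make Krt5 and Krt14 under the transcription factor p63. Epithelial cells of any organ are joined by E-cadherin, claudins and desmosomes, while mesenchymal cells make vimentin, N-cadherin and matrix proteins, and the transition between these states (EMT) is driven by factors of the SNAIL, ZEB and TWIST families. Cells of nearly every kind also carry sensors of foreign nucleic acid, of which RIG-I and MDA5 detect double-stranded RNA and signal through MAVS, TBK1 and IRF3 to the genes for type I interferon. Interferon then acts through kinases of the JAK family and STAT factors on a set of interferon-stimulated genes.

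The scramble library held 19326860 counts after rounding, and 99.9% of them fell in the genes that were kept. Levels are given as TPM (length-normalised transcript abundance), which divides each count by the gene's deposited length and scales the library to a fixed sum, so that genes of different length can be compared. Each interval of a gene's level is an exact 95% Poisson interval for counting error only. With a single library there was no spread between cultures to set against any difference, and no test was run. Of the genes with at least 10 counts, 11836 reached 1 TPM, 8278 reached 10 TPM, 1569 reached 100 TPM and 159 reached 1000 TPM. Their median was 18.2 TPM and 545 counts. Just inside the threshold, the 157 genes with 10 counts ranged from 0.0421 to 2.66 TPM (median 0.411), and just outside it the 198 genes with 9 counts ranged from 0.0802 to 3.91 TPM (median 0.469). A further 37613 genes had 0 counts and 6361 had 1 to 9. For 35.1% of the kept genes the deposited count was not whole, so reads that match several genes had been shared out among them.

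The markers of urothelium were largely missing. Of 20 luminal urothelial genes, 5 had at least 10 counts, and their summed level over the whole list was 25.2 TPM. FOXA1 and GATA3, transcription factors of luminal urothelium, were read at low levels, with Foxa1 at 5.14 TPM (95% interval 4.39 to 5.98) and Gata3 at 1.44 TPM (1.06 to 1.91). The other 6 defining luminal genes were under 10 counts. Among the uroplakin genes, which encode the plaque proteins of the luminal surface, Upk1a had 8 counts, Upk2 had 1, and Upk3a had 0, which allows up to 0.270 TPM. Krt20, the keratin of mature umbrella cells, had 0 counts, as did Grhl3, a factor of urothelial differentiation, and Pparg, a regulator of the luminal program, had 1. The remaining luminal genes above the threshold were Tbx3, a T-box repressor, at 12.6 TPM, and the paired simple keratins Krt18 at 3.21 TPM and Krt8 at 1.15 TPM. Krt7 was at 0 counts. Among the defining luminal genes only Foxa1 and Gata3 were thus read, both under the 18.2 TPM median of the kept genes. The identity as a bladder cancer cell comes from the named cell line and not from these levels.

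Basal markers were no better represented. Of 24 basal and squamous genes, 4 had at least 10 counts. None of the 3 defining ones did, since Krt5 had 0 counts (up to 0.134 TPM), Krt14 had 5 and Trp63, which encodes p63, had 1. The list's summed level of 372 TPM came almost entirely from 2 adhesion receptors that other cell types also make. These were Cd44, the hyaluronan receptor, at 186 TPM (183 to 190), and Itga6, a laminin-binding integrin subunit, at 178 TPM. Its partner in hemidesmosomes, Itgb4, was at 6.33 TPM, and Sfn, the epithelial 14-3-3 protein, was at 0.609 TPM on exactly 10 counts.

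Genes of epithelial junctions followed the same pattern. Of 34 listed, 8 had at least 10 counts, with a sum of 68.6 TPM, a median of 0.0385 TPM and 14 genes at 0 counts. Cdh1, which encodes E-cadherin, had a single count. Esrp1, an epithelial splicing regulator, had 0, and so did the claudin genes Cldn1, Cldn3, Cldn4 and Cldn7 and the desmoplakin gene Dsp. What remained of the list was led by genes of cytoplasmic junction proteins. Tjp1, the scaffold ZO-1, which is not restricted to epithelium, was at 41.2 TPM (39.7 to 42.7). Cgn, which encodes the tight junction protein cingulin, was at 15.5 TPM. The other genes above the threshold were lower. Grhl2, an epithelial transcription factor, was at 3.48 TPM and Epcam, the epithelial cell adhesion molecule, at 3.32 TPM (2.59 to 4.21). Grhl1, the plakophilin gene Pkp3, the plakoglobin gene Jup and the protease gene St14 ranged from 0.573 to 1.08 TPM.

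The promoter windows of an epithelial gene at a low level, a basal gene at 0 and a mesenchymal gene at a high level are shown for comparison, because factors of the ZEB and SNAIL families are known to bind the E-box CACCTG. The windows are the 250 bases before the RefSeq start on GRCm38.p6, written 5′ to 3′ on the gene's strand, with CACCTG and its reverse complement CAGGTG in capitals.
Epcam chr17:87635729-87635978: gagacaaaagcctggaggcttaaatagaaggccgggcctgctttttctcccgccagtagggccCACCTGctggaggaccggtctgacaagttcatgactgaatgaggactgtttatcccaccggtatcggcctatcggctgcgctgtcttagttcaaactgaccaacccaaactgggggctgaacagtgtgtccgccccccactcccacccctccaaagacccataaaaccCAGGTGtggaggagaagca
Krt5 chr15:101712906-101713155: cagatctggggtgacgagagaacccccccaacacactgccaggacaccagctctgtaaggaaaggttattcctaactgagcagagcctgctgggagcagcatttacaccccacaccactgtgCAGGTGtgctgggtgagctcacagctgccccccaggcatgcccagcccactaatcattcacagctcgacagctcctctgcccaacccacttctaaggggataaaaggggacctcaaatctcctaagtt
Vim chr2:13574061-13574310: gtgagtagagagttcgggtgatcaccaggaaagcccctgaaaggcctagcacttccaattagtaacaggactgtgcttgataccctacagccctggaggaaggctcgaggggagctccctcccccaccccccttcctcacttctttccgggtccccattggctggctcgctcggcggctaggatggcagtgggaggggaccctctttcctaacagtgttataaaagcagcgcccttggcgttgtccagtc
The Epcam window (plus strand) held 2 matches, whose first bases lay 187 and 19 bases before the start. The Krt5 window (minus strand) held 1 match, 128 bases before the start, and the Vim window (plus strand) held none. Both strands were searched and no other motif was. Of all 32851 windows of this length, 17.2% held at least 1 match, and by gene the share was 19.4% of 27025. Among listed genes with a window, it was 12 of 22 for epithelial junctions, 8 of 13 for luminal, 4 of 9 for basal and 1 of 16 for mesenchymal genes. These counts include genes at any level. Other listed genes, Cdh1 among them, had no window. The lists were chosen with earlier results of these data known, and whether the motif bears on any level was not tested. A match describes letters in a window and does not show that a factor was bound there.

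In contrast, several mesenchymal genes were abundant. Of 31 listed, 22 had at least 10 counts, including all 4 defining genes, and 14 reached 10 TPM. The median over the list was 4.47 TPM, against 0.0385 TPM for epithelial junctions. The highest were S100a4, a calcium-binding protein of motile mesenchymal cells, at 4281 TPM (4224 to 4338), and Vim, the intermediate filament vimentin, at 3066 TPM (3043 to 3089). Both stood among the 159 kept genes above 1000 TPM, and by counts the order was reversed, with 21695 for S100a4 and 68433 for Vim. Sparc, a collagen-binding matricellular protein, was at 560 TPM, the receptor kinase gene Axl at 380 TPM and Cav1, which encodes the caveolae coat protein, at 320 TPM. Among matrix genes, Col3a1 was at 129 TPM and Fbn1, which encodes fibrillin, at 75.7 TPM. N-cadherin, encoded by Cdh2, was at 67.7 TPM (65.5 to 70.1) on 3339 counts. The ratio of Cdh2 to Cdh1 was therefore 3054 on the TPM scale, although with 1 count for Cdh1 its exact 95% interval ran from 548 to 120672.

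The mesenchymal program was not complete. The fibroblast collagen gene Col1a1, a defining gene, was at 0.895 TPM and Col1a2 at 1.34 TPM, far under Col3a1 on the same scale. Fn1, which encodes fibronectin, was at 2.43 TPM, the contractile genes Acta2 and Tagln were at 0.917 TPM and on 9 counts, and Pdgfrb, a defining pericyte and fibroblast receptor gene, was at 11.2 TPM. The defining genes Col1a1 and Pdgfrb were thus under the 18.2 TPM median of the kept genes. Cdh11, Col5a2, Thy1, Lox and Nt5e had 0 counts, and Postn, Lum and Fap had 1 or 2. The 0 of Cdh11, which encodes a mesenchymal cadherin, was accompanied by 1367 and 5214 counts, neither of them whole before rounding, on a pair of rows described in the table as cadherin 11 pseudogenes, at 33.5 and 110 TPM. How reads were shared between the gene and these copies is not known, so the Cdh11 level was uncertain.

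The summed mesenchymal level was 9245 TPM against 68.6 TPM for epithelial junctions, a log2 ratio of 7.07 (95% counting interval 7.03 to 7.12), which was 5.26 with no length correction. The sums weigh abundant genes most, and S100a4 and Vim made up most of the mesenchymal one. All 5 defining EMT transcription factors were read, and 10 of the 11 listed had at least 10 counts, each above 10 TPM. Zeb2 was at 67.7 TPM (65.6 to 70.0), Twist1 at 55.5 TPM and Snai1 at 42.3 TPM, while Zeb1 was at 29.3 TPM and Snai2, also called Slug, at 13.03 TPM. Of the others, Sox9, Tcf4, Sox4, Twist2 and Prrx1 lay between 19.5 and 38.2 TPM. Foxc2 alone had 0 counts. Zeb2 exceeded the epithelial factor Grhl2 19.5 times on the TPM scale.

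**Figure D1:**
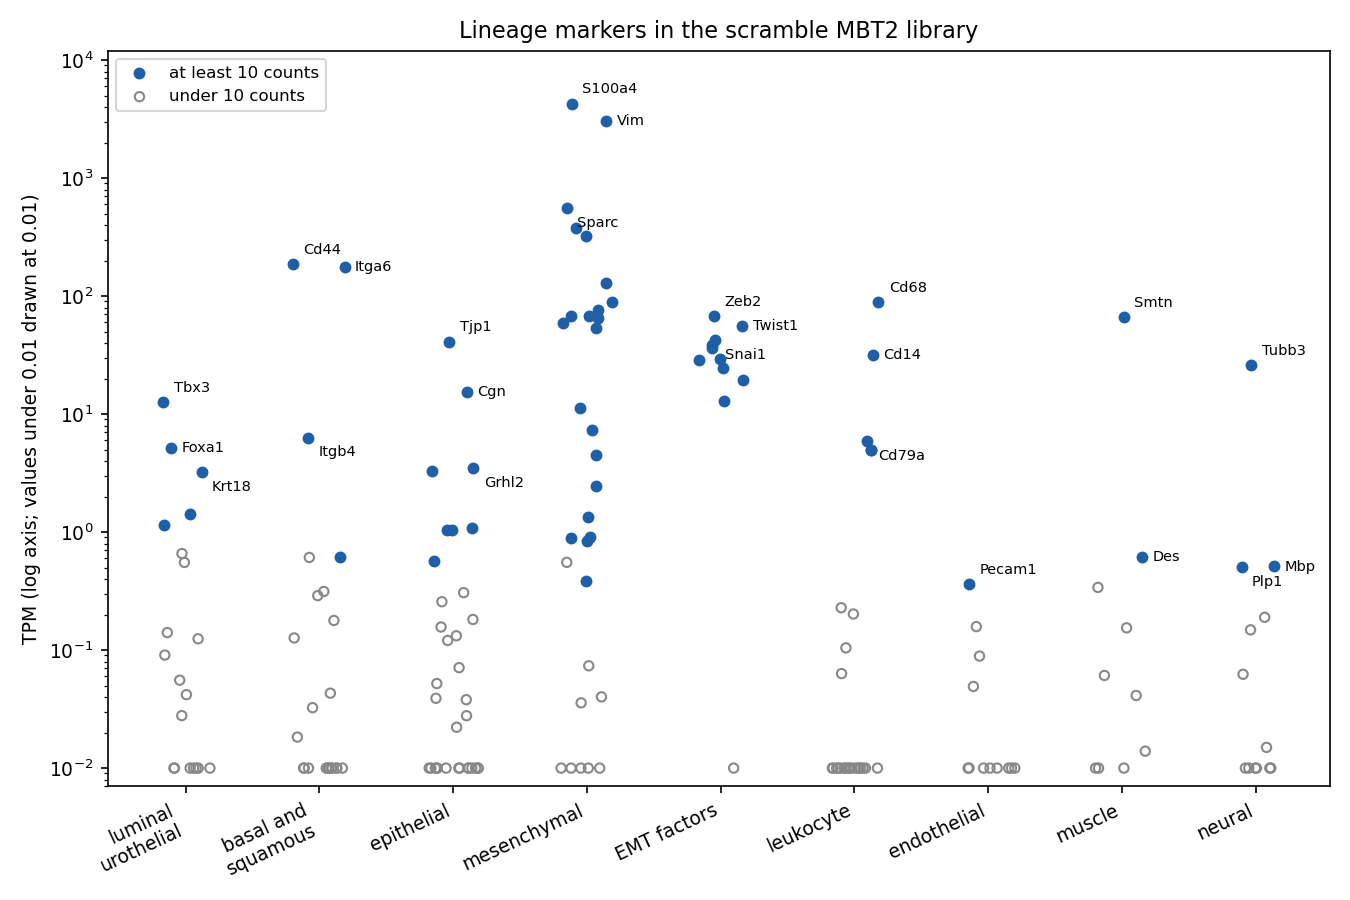
TPM (log axis) of every listed lineage marker in the scramble library, 1 point a gene, filled at 10 counts or more and open below; values under 0.01 TPM are drawn at 0.01. Mesenchymal genes reach 4281 TPM and EMT factors lie between 13.03 and 67.7 TPM apart from Foxc2, while most luminal, basal, epithelial, leukocyte and endothelial markers lie at or near the lower edge.

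Hox genes, which encode homeodomain factors laid down in order along the body axis, are read as a record of position. Of 39 Hox genes, 31 had at least 10 counts, all 4 clusters were represented, and members of the Hoxc cluster were the highest. Hoxc10 led at 74.7 TPM (70.9 to 78.7), followed by Hoxc6 at 30.1 TPM and Hoxc11 at 27.5 TPM. The 9 Hoxc genes summed to 192 TPM, against 86.3 TPM for the 10 Hoxb genes, 62.9 TPM for the 9 Hoxd genes and 57.0 TPM for the 11 Hoxa genes. In the Hoxa cluster the anterior genes Hoxa2 to Hoxa5 lay between 1.11 and 1.36 TPM and Hoxa6 had 5 counts, whereas Hoxa7, Hoxa9, Hoxa10 and Hoxa11 lay between 9.10 and 16.6 TPM. The Hoxb and Hoxc clusters did not keep this order throughout. Hoxb2 was at 15.15 TPM, Hoxb7 at 19.3 TPM and Hoxb9 at 4.66 TPM, and Hoxc4 at 21.4 TPM stood above Hoxc9 at 6.95 TPM. In the Hoxd cluster, Hoxd3 and Hoxd4 were at 0.530 and 1.91 TPM, and Hoxd8, Hoxd9 and Hoxd10 lay between 13.6 and 21.3 TPM. Of the most posterior group, Hoxd13 was at 11.8 TPM and Hoxc13 at 4.67 TPM, whereas Hoxa13 and Hoxb13 had 0 counts. Hoxb1, Hoxc12, Hoxd1, Hoxd11 and Hoxd12 were also at 0.

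**Figure D2:**
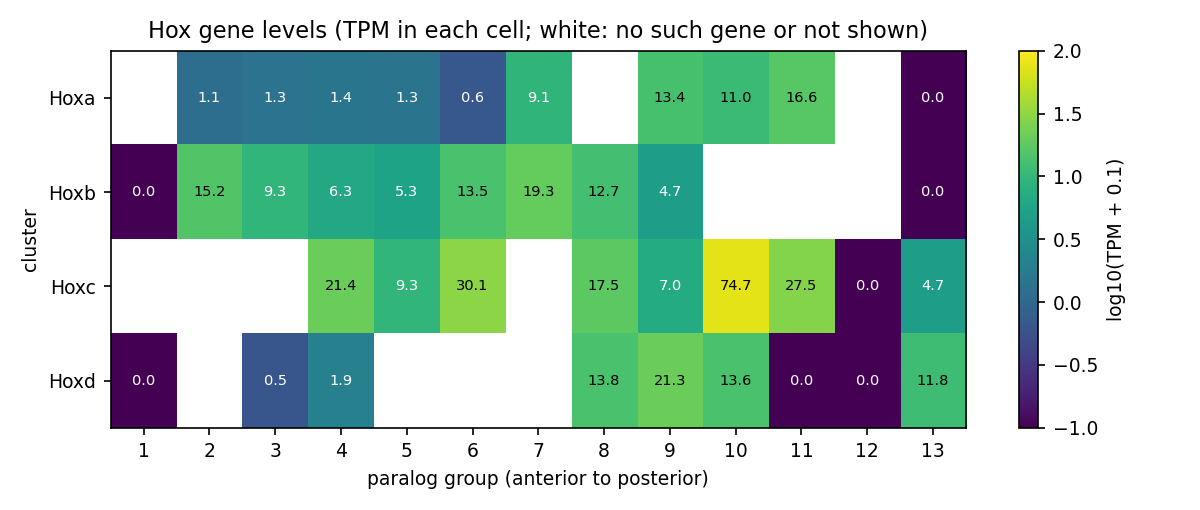
TPM of each Hox gene by cluster (rows) and paralog group from anterior to posterior (columns), with the color giving log10(TPM + 0.1) and white squares marking positions with no gene or a gene not shown. Hoxc10 is the highest at 74.7 TPM, and 7 genes are at 0.

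Markers of other cell types were read to see what else the culture could hold. In bulk RNA, fewer cells of a type and less RNA per cell cannot be told apart. Of 26 leukocyte genes, 5 had at least 10 counts, while 5 of the 6 defining ones had 0, among them Ptprc, the pan-leukocyte phosphatase CD45, Cd3e, Itgam and Tyrobp, and Csf1r had 9. For Ptprc a count of 0 allows up to 0.0581 TPM. The 5 leukocyte genes above the threshold were Cd68, a lysosomal membrane protein, at 88.5 TPM, Cd14, the lipopolysaccharide co-receptor, at 31.7 TPM, and Cd79a, Coro1a and Lyz2 at 4.93 to 5.87 TPM. Of 12 endothelial genes, only Pecam1 passed, on 11 counts. Smooth and skeletal muscle genes gave 2 of 10, Smtn, a smoothelin also present outside muscle, at 65.9 TPM and the desmin gene Des at 0.617 TPM. Neural genes gave 3 of 13, led by Tubb3, a beta-tubulin also common in cultured tumor cells, at 25.9 TPM. None of 18 markers of liver, lung, kidney, gut, prostate or red cells passed, including the defining genes Alb, Sftpc, Cdx2 and Pax8. Among sex-linked genes, Xist had 2 counts, Ddx3y and Eif2s3y had 0, Uty had 1 and Kdm5d had 17 that were not whole.

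Outside the Hox clusters, the share of members read differed between families of transcription factors. Of 19 Sox factors, 3 passed, with Sox9 and Sox4 named above and Sox5 at 0.651 TPM. Of 9 Pax factors, 2 passed, Pax6, an eye and brain factor, at 21.2 TPM and Pax5, a B cell factor, at 8.40 TPM. Of 14 Tbx factors, 4 passed, led by Tbx15 at 55.4 TPM, and of 6 Gata factors, 3 passed, led by Gata2 at 14.01 TPM. The Fox family gave 17 of 44, led by the cell cycle factor gene Foxm1 at 87.3 TPM, and the Klf family gave 13 of 17, led by Klf3 at 84.7 TPM.

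Receptor tyrosine kinases were next examined as the receptors most often altered in bladder cancer. Of 54 listed, 20 had at least 10 counts, a smaller share than among all protein-coding genes, and 23 had 0. Axl, the receptor for GAS6, was far above the others at 380 TPM (375 to 386), 15.9 times Egfr on the same scale. Behind it came Ryk, a Wnt co-receptor, at 132 TPM, Epha2, an ephrin receptor, at 108 TPM and Fgfr1 at 102 TPM. The collagen receptor gene Ddr2 was at 77.7 TPM, the PDGF receptor gene Pdgfra at 59.4 TPM and Met, the receptor for hepatocyte growth factor, at 59.2 TPM. The receptors of the EGF family were lower, with Egfr at 24.0 TPM (23.05 to 24.9), Erbb2 at 16.6 TPM and Erbb3 at 12.6 TPM, while Erbb4 had 0 counts. Fgfr3, the FGF receptor of urothelial tumors, was at 6.16 TPM, so that Fgfr1 exceeded it 16.5 times on the TPM scale. Fgfr2 had 9 counts and Fgfr4 had 1. Insr, which encodes the insulin receptor, had a single count, against 13.9 TPM for Igf1r. Kit, Kdr, Ret, Alk and Musk were among those at 0.

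RNA for ligands of several of these receptors was read in the same library. Of 29 growth factor genes, 14 passed, the highest being Csf1, the macrophage growth factor, at 1480 TPM (1464 to 1496) and Vegfa at 300 TPM (292 to 307). The CSF1 receptor gene Csf1r was under the threshold, as noted above, and Flt1, a receptor for VEGFA, was at 0.399 TPM. In all, 5 EGF-type ligand genes lay above 10 TPM, namely Ereg at 107 TPM, Hbegf at 74.1 TPM, Nrg1 at 33.3 TPM, Btc at 15.3 TPM and Areg at 13.1 TPM. The insulin-like ligand genes Igf1 and Igf2 had 1 and 0 counts and the Met ligand gene Hgf had 1. Kitl, the ligand of Kit, was at 46.7 TPM although Kit had 0 counts. Of 22 FGF genes, 3 passed, Fgf15 at 31.8 TPM, Fgf11 at 7.76 TPM and Fgf22 at 1.78 TPM.

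Receptors for TGF-beta and bone morphogenetic proteins were well represented, with 11 of 14 above the threshold. The co-receptor gene Tgfbr3 was at 56.7 TPM and Bmpr1a at 52.0 TPM. The signalling pair differed, as Tgfbr2 was at 28.6 TPM and Tgfbr1 at 5.39 TPM. Of 19 receptors for Wnt, Notch and Hedgehog, 10 passed, led by the Wnt co-receptor gene Lrp5 at 31.4 TPM, the Hedgehog transducer gene Smo at 29.4 TPM, Lrp6 at 25.8 TPM and Notch2 at 24.8 TPM. Only Fzd2 and Fzd5, at 9.36 and 8.49 TPM, passed among the frizzled receptors listed. Of 19 Wnt ligand genes, 6 passed, led by Wnt10a at 20.7 TPM, Wnt5a at 9.92 TPM and Wnt10b at 8.83 TPM.

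Of 37 cytokine and death receptors, 25 passed. Tnfrsf12a, the receptor for the cytokine TWEAK, was the highest at 525 TPM (508 to 543), and the TNF receptor gene Tnfrsf1a and the lymphotoxin receptor gene Ltbr followed at 73.2 and 70.0 TPM. Both chains of the type I interferon receptor were present, Ifnar1 at 35.2 TPM (33.0 to 37.4) and Ifnar2 at 12.1 TPM. Both chains of the interferon-gamma receptor were as well, with Ifngr1 at 34.7 TPM and Ifngr2 at 13.3 TPM. In each pair the first chain was the more abundant on the TPM scale. Ifnlr1, the type III interferon receptor common in epithelia, had 0 counts, which allows up to 0.0705 TPM. The IL-6 receptor genes Il6st and Il6ra were at 41.8 and 16.9 TPM, and Lifr was at 0. The death receptor genes Tnfrsf10b, a TRAIL receptor, and Fas were at 28.7 and 7.17 TPM.

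G protein-coupled receptors gave 22 of 46, but only 6 reached 10 TPM. The orphan receptors Gprc5b at 219 TPM and Gprc5a at 58.7 TPM stood above S1pr2, a sphingosine 1-phosphate receptor, at 23.7 TPM. Cxcr4, the receptor of CXCL12, had 0 counts, and the decoy receptor gene Ackr3 was at 13.9 TPM. Of 26 integrin subunits, 11 passed. Itgb7, best known from lymphocytes, was the highest at 498 TPM (490 to 507), 1.39 times Itgb1 on the same scale, which was at 358 TPM (352 to 364). That order rested on the deposited lengths, since Itgb7 had 13611 counts and Itgb1 had 13901. The alpha subunits that pair with ITGB7, encoded by Itga4 and Itgae, had 1 and 3 counts. Partners of ITGB1 that passed included Itga6 at 178 TPM, the fibronectin receptor chain gene Itga5 at 47.6 TPM and Itgav at 72.2 TPM, which also pairs with the product of Itgb5, at 111 TPM. Of 48 nuclear receptors, 24 passed, led by the retinoic acid receptor gene Rarg at 96.3 TPM, the glucocorticoid receptor gene Nr3c1 at 91.0 TPM, Nr1h2, a liver X receptor, at 75.3 TPM and Rxra at 69.5 TPM. The estrogen receptor gene Esr1 was at 0.769 TPM.

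**Figure D3:**
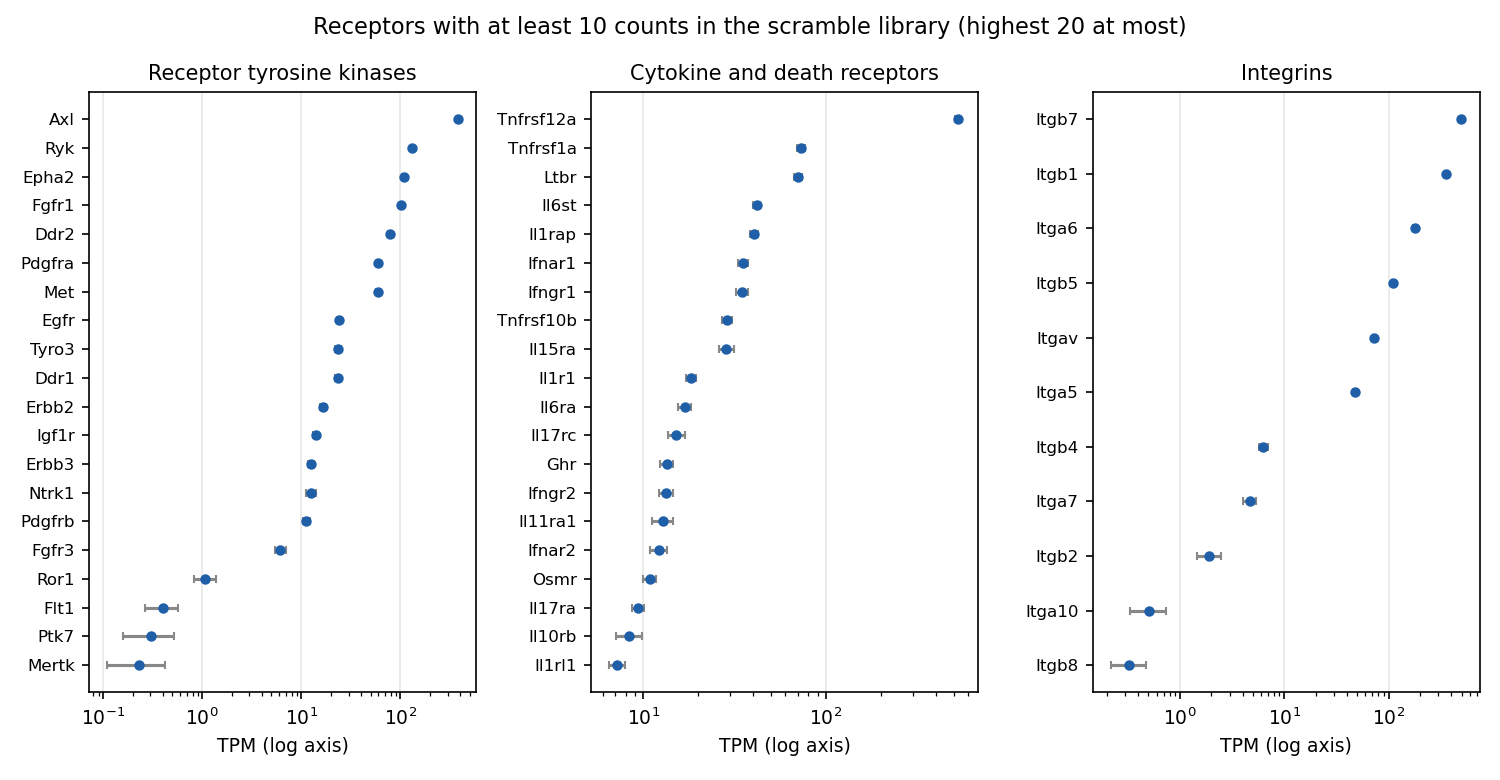
TPM (log axis) of receptor tyrosine kinases, cytokine and death receptors, and integrins with at least 10 counts in the scramble library, at most 20 a panel; points are levels and bars are exact 95% Poisson intervals for counting error. Axl at 380 TPM, Tnfrsf12a at 525 TPM and Itgb7 at 498 TPM lead their panels.

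The basal state of the innate pathways was then described, since the study concerns RIG-I. Of 36 sensors and adaptors, 24 had at least 10 counts, including all 7 defining ones. Rigi, which encodes RIG-I, was at 27.8 TPM (26.2 to 29.5), Ifih1, which encodes MDA5, at 13.4 TPM (12.5 to 14.4), and Dhx58, the related receptor LGP2, at 11.6 TPM. Their adaptor gene Mavs was at 39.3 TPM (37.1 to 41.6), above all 3 receptors on the TPM scale. On the DNA-sensing side, Cgas was at 8.76 TPM (7.88 to 9.71) and its partner Sting1 at 9.06 TPM (7.88 to 10.4), whose intervals overlapped. Aim2, a DNA sensor of inflammasomes, was at 16.1 TPM, although Pycard, the inflammasome adaptor ASC, had a single count. Of the Toll-like receptors, Tlr4 was at 10.4 TPM (9.41 to 11.4) and Tlr3 at 7.36 TPM (6.59 to 8.20), Tlr6 was at 3.44 TPM, and Tlr2, Tlr8 and Tlr9 had 0 counts. Among cell death genes, the necroptosis effector gene Mlkl was at 60.2 TPM, the highest of the list, and Casp8 at 46.0 TPM, whereas Ripk3, the kinase that activates MLKL, had 1 count. The genes of 3 ligases of RIG-I examined in the study, Stub1, Cbl and Rnf122, were at 104, 19.1 and 9.96 TPM, and that of the fourth, Rnf125, had 0 counts (up to 0.210 TPM).

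Transcripts of the signalling genes between sensors and target genes were nearly all read. Of 25 genes, 24 passed and 21 reached 10 TPM, the exception being Irf8, a factor of myeloid cells, with 2 counts. Nfkb1 was the highest at 257 TPM, with the kinase gene Jak1 at 112 TPM, Rela at 88.3 TPM and Irf1 at 74.2 TPM. Irf3, which switches on interferon genes, was at 28.3 TPM (25.7 to 31.2), and its kinase gene Tbk1 at 26.3 TPM. Stat2 was at 12.2 TPM and Irf9 at 20.1 TPM, and Irf7, itself an interferon-stimulated gene, was at 8.98 TPM. In contrast, none of the 21 interferon genes had a single count. For Ifnb1, which encodes interferon-beta, 0 counts allow up to 0.393 TPM, and over the list this limit ran from 0.202 TPM for Ifnz to 0.525 TPM for Ifna4.

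Interferon-stimulated genes were nonetheless read at basal levels, with 45 of 49 above the threshold and a median of 7.27 TPM over the 49. The levels spanned a wide range. Ifitm2 and Ifitm3, which block viral entry, were at 456 and 420 TPM, Bst2, the tetherin that holds back virions, at 390 TPM, Ifi27 at 187 TPM and the ubiquitin-like modifier gene Isg15 at 139 TPM (130 to 147). These stood apart from the classical antiviral effectors on the same scale. Ifit1, which binds uncapped viral RNA, was at 7.40 TPM, and Ifit2 was above it at 33.0 TPM. Rsad2, which encodes viperin, was at 1.84 TPM (1.44 to 2.33), the oligoadenylate synthetase gene Oas2 at 0.595 TPM (0.381 to 0.886) and Ifi44 at 1.01 TPM. Mx1 had 3 counts, and Ifitm1 and Tgtp1 had 0. Counts of 16 of the 45 were not whole, so levels within families of close copies are uncertain.

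Class I antigen presentation was fully represented, with 18 of 18 genes above the threshold and 16 at 10 TPM or more. B2m, the light chain, was among the 20 most abundant named genes at 4185 TPM (4142 to 4228), and the heavy chain genes H2-K1 and H2-D1 were at 1158 TPM (1141 to 1174) and 406 TPM, with counts that were not whole. The endoplasmic reticulum chaperone gene Calr was at 1058 TPM and Tapbp, the peptide-loading factor tapasin, at 126 TPM. The peptide transporter genes Tap1 and Tap2 were at 32.7 and 76.9 TPM, and Nlrc5, the class I transactivator, at 8.87 TPM. Class II genes were close to absent. Of 8 listed, 2 passed, H2-DMa at 3.64 TPM and the invariant chain gene Cd74 at 0.976 TPM, while H2-Aa and H2-Ab1 had 0 counts and the transactivator gene Ciita had 1. Of 26 ligands for T cells and natural killer cells, 12 passed. The phagocytosis inhibitor gene Cd47 was at 225 TPM, the NKG2D ligand gene Ulbp1 at 63.7 TPM and the poliovirus receptor gene Pvr at 60.7 TPM, whereas Cd274, which encodes PD-L1, was at 5.05 TPM (4.35 to 5.83), and Pdcd1lg2 and Ido1 had 0 counts.

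Chemokine RNA was also read without added stimulus. Of 41 chemokines and cytokines, 27 passed, and the abundant ones recruit monocytes and neutrophils. Mif, the macrophage migration inhibitory factor, was at 2455 TPM, Ccl2, which attracts monocytes, at 1930 TPM (1900 to 1960) and Ccl7 at 300 TPM. The neutrophil attractants Cxcl2, Cxcl1, Cxcl3 and Cxcl5 were at 924, 848, 483 and 78.9 TPM. Of the T cell attractants, Ccl5 was at 118 TPM (109 to 127), Cxcl10 at 62.1 TPM (57.5 to 66.9) and Cxcl9 at 3.16 TPM, and Ccl2 exceeded Ccl5 16.4 times on the same scale. Cxcl12, Ccl22 and Il18 had 0 counts, Il6 had 3 and Il1b had 1. These are RNA levels only. The study also measured proteins in supernatants of control MBT2 cells, where IL-6, IL-1 beta and CXCL12 read above the lowest value reported. Few or no counts here therefore do not show that the protein was absent. By family, 6 of 23 CC chemokines, 6 of 12 CXC chemokines and 6 of 33 interleukins passed. The last were led by Il34, a ligand of the CSF1 receptor, at 25.8 TPM and the alarmin gene Il33 at 13.2 TPM.

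**Figure D4:**
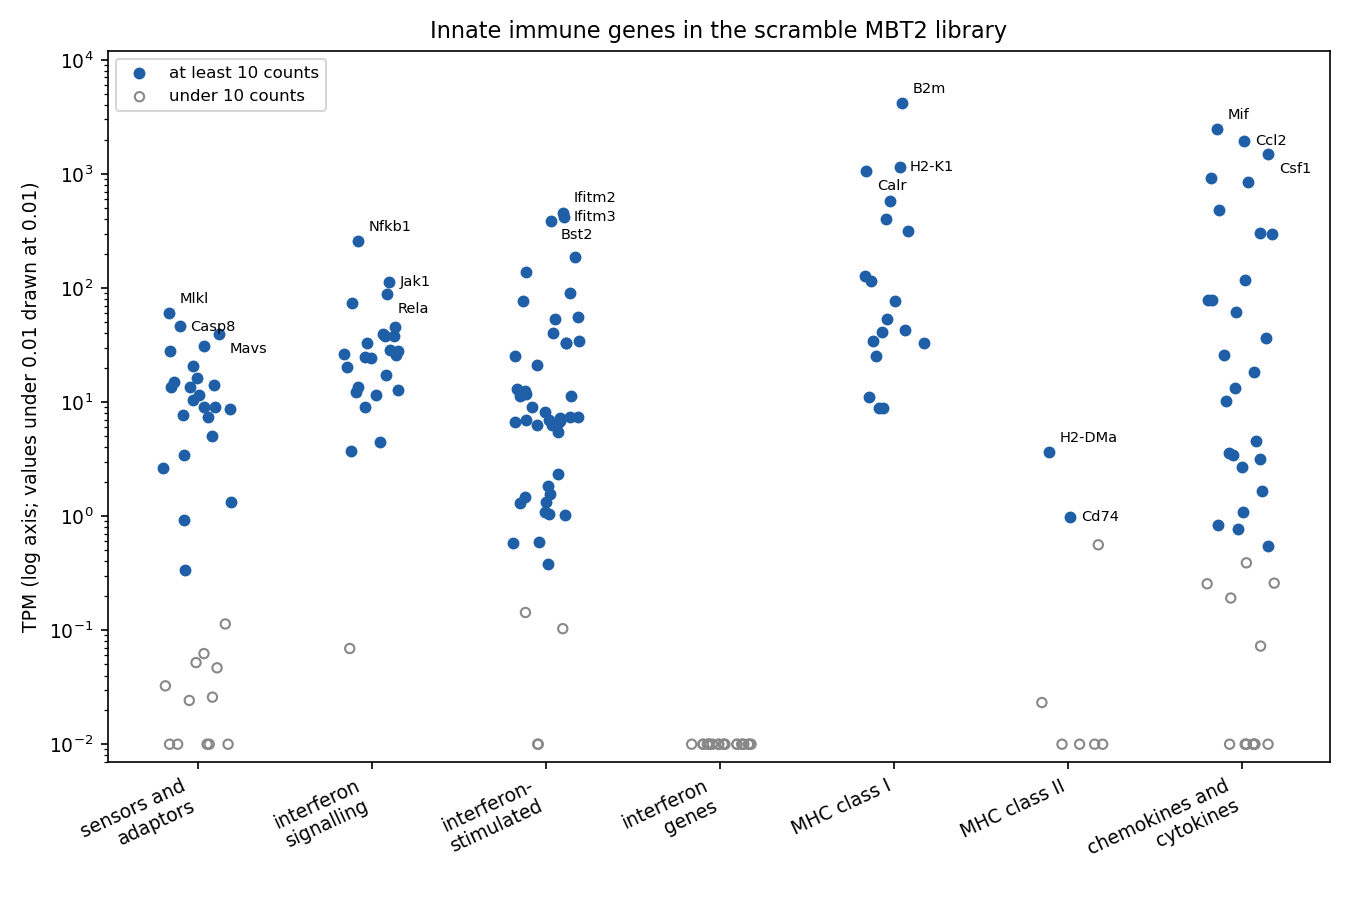
TPM (log axis) of every listed innate immune gene in the scramble library, 1 point a gene, filled at 10 counts or more and open below, with values under 0.01 TPM drawn at 0.01. All 21 interferon genes lie at the lower edge, whereas interferon-stimulated genes reach 456 TPM, chemokines 2455 TPM and class I genes 4185 TPM.

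Proliferation and cancer genes followed. All 19 proliferation genes passed, from Tyms, thymidylate synthase, at 26.5 TPM to the replication clamp gene Pcna at 505 TPM, with Top2a at 204 TPM and Mki67 at 91.6 TPM. Of 27 genes of bladder cancer and cell cycle control, 25 passed. The RAS genes differed, with Nras at 665 TPM (648 to 683) and Hras at 80.3 TPM, so that Nras exceeded Hras 8.28 times on the TPM scale. The tumor suppressor genes Trp53 and Cdkn2a were at 274 TPM (267 to 282) and 136 TPM (128 to 143), and the p53 target gene Cdkn1a at 307 TPM. Ccnd1, which encodes cyclin D1, was at 339 TPM and Myc at 165 TPM. Mycn had 0 counts, and so did Tert, the telomerase catalytic subunit, for which that allows up to 0.0683 TPM. These levels do not show whether a gene is mutated. Asns, the target of the study's hairpins, was at 76.7 TPM (73.0 to 80.6) in these control cells.

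The most abundant named transcripts were those of the translation machinery and of mitochondria. The 10 highest rows of the table held 8.81% of all TPM, the 100 highest 33.3% and the 1000 highest 67.0%. Of the 20 highest named genes, 7 encoded ribosomal proteins and 5 were mitochondrial. The gene mt-Co1, a cytochrome oxidase subunit, was at 11217 TPM and Eef1a1, which delivers tRNA to the ribosome, at 9893 TPM. The others outside these families were Ptma at 6499 TPM, the lectin gene Lgals1 at 5501 TPM, the ferritin gene Fth1 at 4518 TPM, S100a4, B2m, the actin gene Actg1 at 4038 TPM and the glycolytic enzyme gene Pkm at 3871 TPM. All 13 housekeeping genes passed, from Gusb at 30.2 TPM to Rplp0 at 4734 TPM.

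Ribosomal protein genes gave 84 of 87 and 14.5% of all TPM, and the 13 mitochondrially encoded protein genes all passed with 4.004%. Heat shock proteins gave 23 of 27 and 0.928% of TPM, led by Hsp90ab1 at 3029 TPM. Tubulins gave 11 of 17, led by Tuba1b at 1668 TPM, annexins 8 of 11, led by Anxa2 at 1566 TPM, and S100 proteins 9 of 15, in which S100a6 at 1696 TPM and S100a11 at 1573 TPM followed S100a4. Pseudogenes took 9.64% of all TPM and 3.76% of counts. Of the 20 highest rows of the whole table, 4 were pseudogenes. They were led by Gm10925 at 13299 TPM, Gm28661 at 12281 TPM and Gm28437 at 7607 TPM, on counts that were not whole. Which genes these rows copy, and whose reads they hold, was not tested. Also among the 20 highest rows were the noncoding RNA AC158975.2 at 7606 TPM and a row without a symbol at 5652 TPM. They had 145124 and 192932 counts, neither whole before rounding. The mt-Co1 count was not whole either, so reads of mitochondrial genes may lie on other rows. The mitochondrial share of 4.004% is therefore uncertain, and is too low if the pseudogene rows hold such reads. Copies of ribosomal protein genes shared reads too. Gm10260, described as a copy of Rps18, was at 4567 TPM, so the levels of single ribosomal protein genes are uncertain.

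Matrix and adhesion families were represented in part. Collagens gave 21 of 44, led by Col3a1, with Col6a3 at 85.4 TPM, Col5a1 at 67.2 TPM and Col8a1 at 66.6 TPM, and laminins gave 8 of 11, led by Lamc1 at 113 TPM. Serpins gave 15 of 61, of which Serpinh1, the collagen chaperone HSP47, was at 782 TPM. Metalloproteinases of the MMP and ADAM families gave 25 of 74, led by Adam9 at 96.5 TPM and Mmp14 at 93.8 TPM. Cadherins gave 4 of 23, with the anchored Cdh13 at 68.7 TPM beside Cdh2, and protocadherins gave 25 of 69, led by Pcdh1 at 57.0 TPM. Claudins gave 4 of 32. Cldn9 at 55.1 TPM and Cldn12 at 29.1 TPM were the exceptions to a family otherwise under 1 TPM. Zfp genes gave 313 of 394, histones 27 of 101, Slc transporters 191 of 371, potassium channels 13 of 92, cytochromes P450 14 of 100 and UDP glucuronosyltransferases 5 of 22.

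Families of specialized tissues were close to absent. Keratins gave 3 of 53, with Krt80 the highest at 8.43 TPM and 42 genes at 0, and none of 57 keratin-associated proteins passed. No immunoglobulin segment of 268, no T cell receptor segment of 226, no defensin of 64, no major urinary protein of 22, no hemoglobin of 10 and no type I interferon of 18 reached 10 counts. Olfactory receptors gave 35 of 1094 (3.199%), the highest being Olfr1336 at 8.53 TPM. Vomeronasal receptors gave 20 of 325, the highest being Vmn2r115 at 1.47 TPM. The counts of Olfr1336 and Vmn2r115 were not whole, so their levels are uncertain. Kallikreins gave 2 of 27, taste and trace amine receptors 2 of 53, and receptors for glutamate and GABA 4 of 46, of which Grid1 was at 30.0 TPM and Grik5 at 20.5 TPM.

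**Figure D5:**
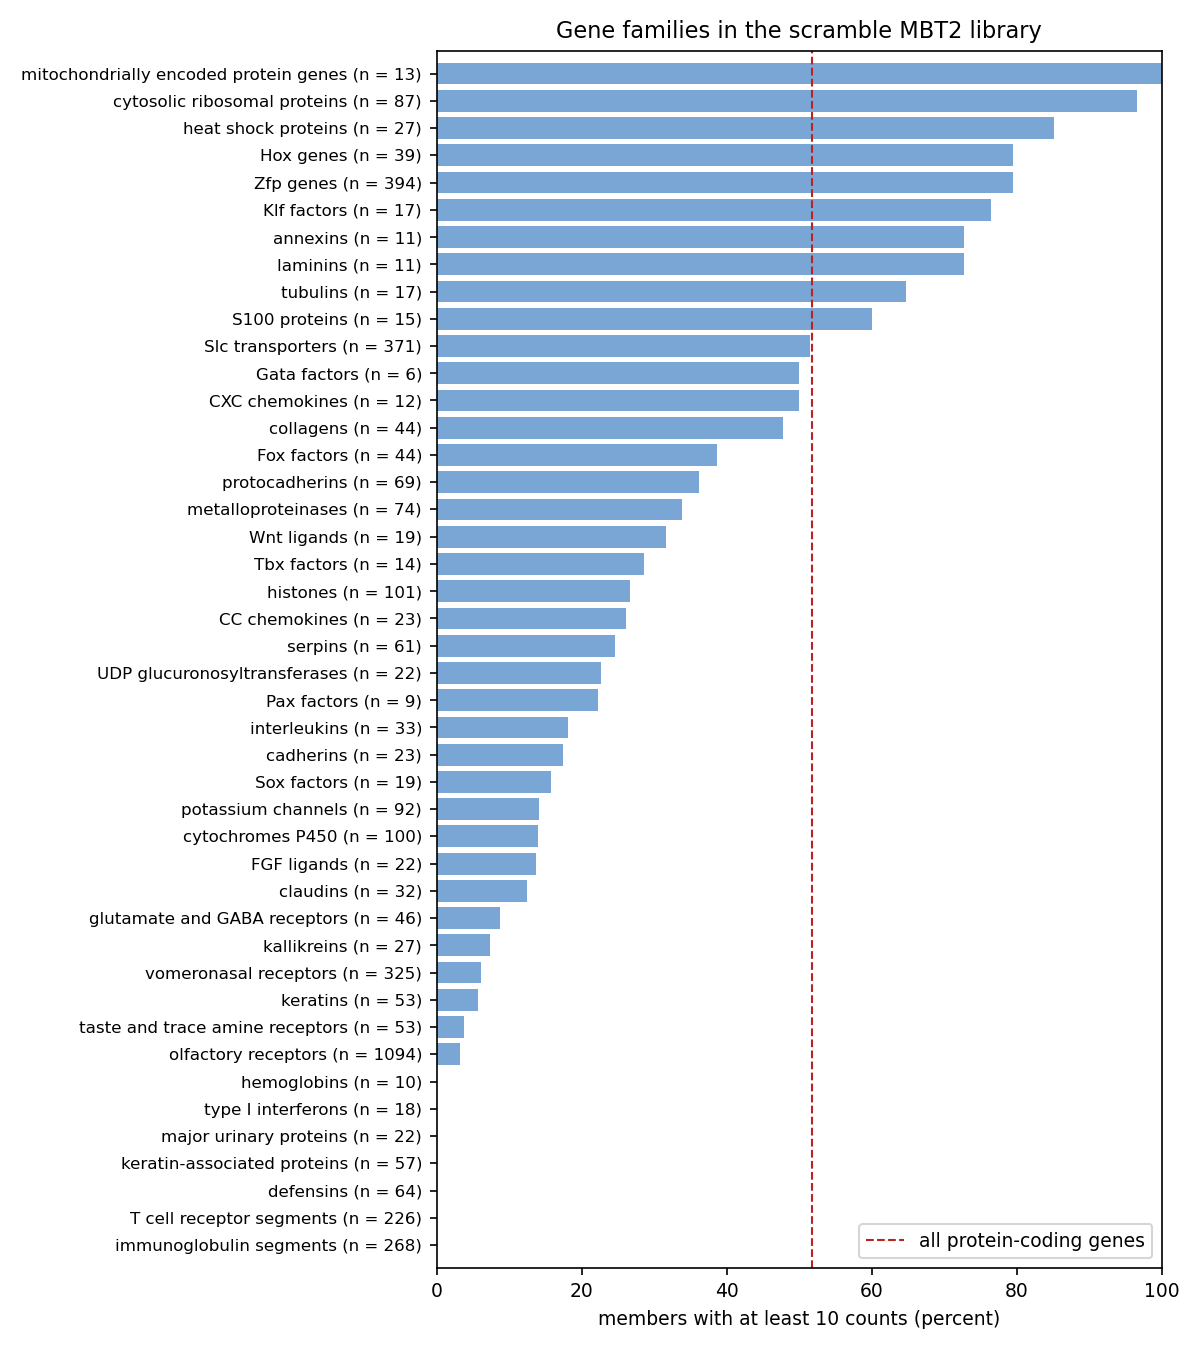
Share of the members of each gene family with at least 10 counts in the scramble library (percent, horizontal bars, with the number of members beside each name); the dashed line marks all protein-coding genes at 51.7%. Ribosomal, mitochondrial, heat shock and Hox families exceed the line, and keratins, olfactory receptors and antigen receptor segments lie at or near 0.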

How the data were processed

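RNA-seq of the scramble MBT2 library was analysed alone (1 library, no replicates). The authors deposited estimated counts per Ensembl gene, not scaled, with a gene length in bases. The study's methods name a TruSeq kit, and the submitters' processing notes list Bowtie 0.12.2 without a role. The sources used here give no counter, genome build or annotation. The columns of the Asns hairpin libraries were not used.

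Expected counts were rounded to whole numbers and TPM was computed from the deposited length over all 57010 genes. That length equalled the longest GENCODE M21 transcript for 59.7% of 12818 genes and was at or under 0.5 of it for 954. Symbols came from a GENCODE M21 table matched on Ensembl ID, or from RefSeq where that table had none. Gene types were filled in the same way. In all, 52029 genes had a symbol, and the others held 1.45% of counts. Genes with at least 10 counts were described. A gene at 0 was given the level of 3 counts as an upper limit, and intervals were exact Poisson limits at 95%. A count was taken as whole within 1e-09. The cadherin ratio used an exact conditional binomial interval. The interval of the log2 ratio of list sums was a normal approximation from the counting error of both sums.

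The 31 lists (744 genes) and 44 families (by symbol, protein-coding genes except for antigen receptor segments) were chosen with earlier results of these data known. The genes named were the 20 with the highest TPM with a symbol other than a predicted gene, up to 8 per list with every defining gene, up to 4 per family, the Hox genes and Asns. Other genes named were chosen after their values were seen, and some members of the lists are not reported here. Promoter windows were RefSeq sequences. The TPM and interval steps were tested on simulated data. Alternatives were other count minimums, a minimum of 1 TPM, unrounded counts, other lengths or none, other sums and other denominators. Tools were Python 3.11.15, pandas 2.3.3, numpy 2.4.6, scipy 1.17.1 and matplotlib 3.10.9.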

Additional observations from a re-analysis of the deposited data

How the results depend on the processing

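The number of genes described was 14342, 11959 and 10849 at count minimums of 5, 20 and 50, 12011 at a minimum of 1 TPM and 12999 without rounding, all within 1.5 times of 13036. Listed members above the threshold, 398 of 744, became 423, 375, 341, 360 and 397 in the same order. By list, the number moved by more than 1.5 times in 3, 4, 7, 5 and 0 of 31 lists. Among the urothelial and epithelial lists, luminal genes went from 5 to 2 and epithelial junctions from 8 to 4 at a minimum of 50, and basal genes from 4 to 7 at a minimum of 5.

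The log2 ratio of mesenchymal to epithelial level, 7.07 in TPM, was 5.26 without length correction, 6.90 with the longest GENCODE transcript, 7.50 without the highest member of each list, 6.53 from medians with 0.01 TPM added and 6.42 over members with whole counts, always in the same direction. The ribosomal share of 14.5% was 15.1% without mitochondrially encoded genes and 6.31% of counts. The mitochondrial share of 4.004% was 2.24% of counts, and the heat shock share of 0.928% was 0.968% without mitochondrially encoded genes and 1.30% of counts. Of 114 single genes, 54 stayed within their counting interval with TPM taken over protein-coding genes with at least 10 counts, which multiplies every level by 1.15, 42 did so as CPM (counts with no length correction), and 114 did so without rounding.

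No paired analysis was possible because the scramble condition had 1 library. Nothing here measures the spread between cultures, and genes on few counts have wide intervals. Levels of genes with close copies depend on how reads were shared out, and every TPM depends on the deposited length.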

Other observations

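Other abundant genes, chosen after their values were seen, were read in the same library. Rhox5, a homeobox gene of the reproductive tract that is often active in tumor cells, was at 488 TPM (95% Poisson interval 474 to 502). Hmga1, a chromatin protein of embryonic and tumor cells, was at 1357 TPM and Odc1, the first enzyme of polyamine synthesis, at 1505 TPM. The deadenylase-related gene Noct, known as a circadian gene, was at 836 TPM.

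Among genes of secreted and surface proteins, Lgals3, a galectin, was at 1057 TPM, Igfbp6, an inhibitor of insulin-like growth factor 2, at 805 TPM, and Spp1, which encodes osteopontin, at 385 TPM. The matrix protease gene Htra1 was at 302 TPM, and Timp2, a metalloproteinase inhibitor, was at 337 TPM whereas Timp3 had 0 counts, which allows up to 0.0624 TPM. The surface mucoprotein gene Pdpn was at 305 TPM and Cd34, a sialomucin of blood vessel and progenitor cells, at 85.5 TPM.

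Among glycolytic and hypoxia-related genes, Ldha, lactate dehydrogenase, was at 2766 TPM, Aldoa, an aldolase, at 1827 TPM, and the lactate exporter gene Slc16a3 at 243 TPM. Ndufa4l2, a target of hypoxia-inducible factors, was at 485 TPM and Hif1a at 137 TPM. Atf4, the transcription factor that acts on Asns under amino acid shortage, was at 373 TPM. Feedback inhibitors of NF-kappaB were read too, with Nfkbia at 196 TPM and Tnfaip3 at 21.9 TPM.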
